A study of Mus musculus with 2 samples.

Results

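Bcat1, Bcat2, Bckdha, Bckdhb, Dbt, Dld, Ppm1k, Ivd, Mccc1 and Acadsb encode enzymes and a phosphatase of branched-chain amino acid breakdown. They were taken by name as 10 of the 21853 protein-coding genes annotated in GENCODE M21, and every DNase peak and hotspot that touched a gene body or the 50 kb on either side of it was examined. DNase I cuts DNA where chromatin is open, and the peaks map such sites in adipocytes that had been differentiated in vitro from 3T3-L1, a mouse preadipocyte line, and were taken at day 8. The 2 libraries are biological replicates 1 and 2 of 1 group, each built from more than 1 technical replicate and both with the same donor record. Undifferentiated cells were not analysed here, so every comparison lies within these adipocytes and no test between conditions could be made. The strain label names C57BL/6J, while the usual account of the 3T3-L1 line is a Swiss mouse origin, so no strain was assumed. The labels do not say whether the cultures were differentiated separately, so a spread between the replicates may be technical.

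Leucine, isoleucine and valine first give up their amino group to 2-oxoglutarate through a branched-chain transaminase. The branched-chain ketoacid dehydrogenase complex of the mitochondrion then removes carbon dioxide in the committed step, and separate enzymes carry the acyl-CoA products of each amino acid onward. Fat tissue is a known site of this pathway, and cultured adipocytes take up its amino acids as they mature and use the carbon for lipid synthesis.

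In replicate 1 there were 133695 peaks on the assembled chromosomes and in replicate 2 there were 216556, and the sequencing depth of both is unknown. The deposited value of a peak runs from 1 to 150 with a median of 45 in replicate 1 and 69 in replicate 2, so it was read as a rank within its own list (percentile). Distances of regions in kb are from the nearest annotated coding start of the member along its strand, negative upstream, while the map of regions counts from the outermost start. Among distal regions, strongest means the highest mean of the percentiles in both lists. A promoter was called accessible when a peak of each replicate lay within 1000 bp of a protein-coding start. By that call 9 of 10 adipocyte markers had an accessible promoter (all but Lep), beside 55.3% of all protein-coding genes. So did Pdgfra of the 2 preadipocyte markers and none of 8 markers of endothelium, blood, muscle and liver (Pecam1, Cdh5, Ptprc, Adgre1, Myod1, Myog, Alb and Ttr).

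The sequences on which the results turn are the promoter regions with the lowest and the highest values, the strongest regions outside promoters at Bcat2, Ivd and Bcat1, and a pair with matches to the C/EBP consensus. Each is the central 150 bp of a region held by both replicates, on the plus strand of GRCm38 as given by RefSeq, in lower case with consensus matches in capitals. The matches are CTCF (CNAGNNGGC) and then AP-1 (TGANTCA) in the Bcat1 upstream region, Sp/KLF (GGGNGGGGC, on the minus strand) at Ppm1k, C/EBP (TTGCNNAA) and then Sp/KLF in the Ivd downstream region, and C/EBP at Bckdhb. The Mccc1 region has a pair of minus-strand C/EBP matches, the second of which overlaps a glucocorticoid receptor match (ACANNNTGT) by 1 base.
Bcat1 promoter region, chr6:145075286-145075435: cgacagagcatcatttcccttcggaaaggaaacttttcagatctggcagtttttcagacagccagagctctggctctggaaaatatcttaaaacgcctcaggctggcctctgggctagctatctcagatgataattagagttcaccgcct
Ppm1k promoter region, chr6:57535576-57535725: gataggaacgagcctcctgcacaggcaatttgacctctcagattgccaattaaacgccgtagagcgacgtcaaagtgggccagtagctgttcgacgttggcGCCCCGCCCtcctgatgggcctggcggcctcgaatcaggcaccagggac
Bcat2 upstream region, chr7:45568156-45568305: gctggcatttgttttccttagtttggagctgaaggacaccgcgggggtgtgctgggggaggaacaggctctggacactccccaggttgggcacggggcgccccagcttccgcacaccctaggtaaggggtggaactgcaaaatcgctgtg
Ivd downstream region, chr2:118883266-118883415: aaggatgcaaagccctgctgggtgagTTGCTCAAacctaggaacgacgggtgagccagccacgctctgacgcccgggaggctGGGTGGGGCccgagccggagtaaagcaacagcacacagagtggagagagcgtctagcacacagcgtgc
Ivd intron region, chr2:118871186-118871335: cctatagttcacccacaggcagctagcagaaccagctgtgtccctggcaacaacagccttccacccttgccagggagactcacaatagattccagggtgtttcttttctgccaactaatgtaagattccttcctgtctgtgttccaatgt
Bcat1 upstream region, chr6:145088576-145088725: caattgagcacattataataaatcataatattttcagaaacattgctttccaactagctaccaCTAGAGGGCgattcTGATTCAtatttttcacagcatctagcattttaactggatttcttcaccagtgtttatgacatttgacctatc
Bckdhb upstream region, chr9:83882366-83882515: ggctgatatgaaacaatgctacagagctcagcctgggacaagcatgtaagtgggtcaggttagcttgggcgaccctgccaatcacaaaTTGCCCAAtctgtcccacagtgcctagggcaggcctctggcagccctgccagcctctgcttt
Mccc1 upstream region, chr3:36008886-36009035: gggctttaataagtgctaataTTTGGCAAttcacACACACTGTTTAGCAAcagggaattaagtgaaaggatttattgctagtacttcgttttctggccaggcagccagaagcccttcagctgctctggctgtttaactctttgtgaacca

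All 10 members had an accessible promoter, beside 55.3% of all protein-coding genes (12088 of 21853). The members were separated by the strength of that promoter. The strongest promoter peak was in the strongest 10% of both lists, with values of at least 94 in replicate 1 and 123 in replicate 2, at 6 members (Bckdha, Dld, Ppm1k, Ivd, Mccc1 and Acadsb), beside 31.7% of all genes (6929 of 21853). All 6929 are among the 12088 genes with an accessible promoter, so 6 of 10 is not a high share for accessible promoters. A hotspot, the broader region of raised cutting around peaks, lay over the promoter at the ceiling of the deposited −log10 q value, 100, in both replicates at 8 members, beside 50.1% of all genes (10941 of 21853). That share also counts the 9765 genes without an accessible promoter, so it does not show that the members had stronger promoters than other accessible genes. The members outside that call were the transaminase genes Bcat1 and Bcat2. Beyond the promoter, all 10 members had at least 1 distal region of both replicates (centred over 1000 bp away from any protein-coding start) with the member's own start as the nearest, beside 69.4% of all genes.

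**Figure D1:**
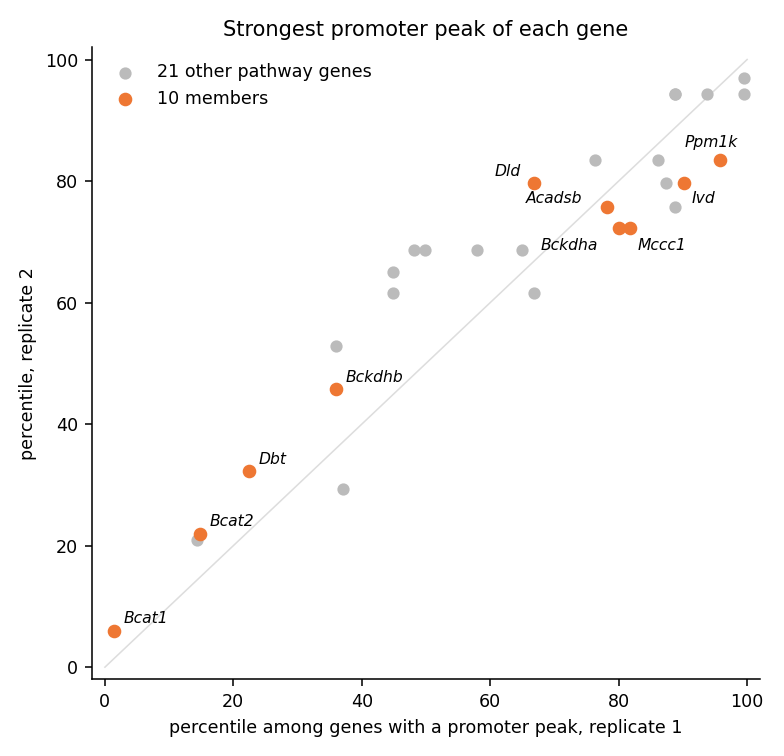
Percentile of each gene's strongest promoter peak among the genes with a promoter peak, replicate 1 on the x axis and replicate 2 on the y axis, for the 10 members (orange, named) and the 21 other pathway genes (grey); the line marks equal percentiles. Bcat1 sits lowest, at 1.46 and 5.94, and Ppm1k is the member farthest right, at 95.7 and 83.4.

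The transaminases, which start the pathway, had the weakest promoters of the 10. Bcat1 encodes the cytosolic enzyme, and it has 6 annotated starts. Near them lay 1 region of both replicates, from 145075256 to 145075465 on chromosome 6. This region lay at 0.82 kb within the gene, with a value of 21 in replicate 1 and 47 in replicate 2 (percentiles 8.12 and 19.6 of all peaks). Its hotspot had a −log10 q of 1.49 in replicate 1 and 2.78 in replicate 2, far below the ceiling in both. Replicate 2 alone had another pair of weak peaks near internal starts, with values of 52 and 55. The strongest region nearest to Bcat1 was intergenic, at -12.47 kb, and its values of 60 and 77 (percentiles 67.8 and 58.6) stood above those of the promoter in both replicates. That upstream region, printed above, also had a hotspot at the ceiling in both replicates. Across its window of 182 kb Bcat1 had 10 peaks in replicate 1, 22 in replicate 2 and 9 regions of both, or 4.94 per 100 kb, which is the percentile 32.5 among all genes and the lowest of the members.

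Bcat2 encodes the mitochondrial transaminase, and its window held more open chromatin than that of Bcat1 but not chiefly at the start. The promoter region, from 45570216 to 45570365 on chromosome 7, had a value of 57 in replicate 1 and 107 in replicate 2. A region at -1.92 kb, from 45568156 to 45568305, had 110 and 140 (percentiles 95.9 and 97.1), higher than the promoter in both replicates. This region touches an exon of a noncoding antisense gene. Promoters were called at protein-coding starts only, so whether it is a promoter of that gene was not tested. Its sequence, printed above, has no match to any of the 14 consensuses searched. A further region, over the last exon of Bcat2 at 14.25 kb from the nearest start, reached 96 in replicate 1 and 141 in replicate 2. Bcat2 had 23 peaks in replicate 1, 31 in replicate 2 and 20 regions of both (16.7 per 100 kb, percentile 90.1). Of its 13 distal regions 9 lay nearer to the start of another gene, mostly of the neighbours Plekha4 and Hsd17b14, and 7 other protein-coding genes start in this window.

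The branched-chain ketoacid dehydrogenase genes code for the E1 subunits (Bckdha and Bckdhb), the E2 core (Dbt) and the E3 component (Dld), which is also a part of the pyruvate and 2-oxoglutarate dehydrogenases. Their promoters fell into an upper pair and a lower pair. Bckdha had a strongest promoter value of 115 in replicate 1 and 141 in replicate 2, and Dld had 108 and 143. Bckdhb had 88 and 132, and Dbt had 72 and 123. Both Bckdhb and Dbt were below Bckdha and Dld in each replicate. They were also below the medians of genes with a promoter peak, 98.0 in replicate 1 and 134 in replicate 2. The genes of 1 complex thus did not share a rank. The hotspot over the Bckdha promoter was 1891 bp long in replicate 1 and 1927 bp in replicate 2. At Dbt it was 396 and 865 bp, beside medians of 876 and 1298 bp over all genes with a promoter peak. The Bckdha start lies 183 bp from that of Exosc5, which is transcribed in the opposite direction, so its promoter region cannot be assigned to Bckdha alone.

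Around the promoters the complex genes differed more. Bckdhb, a gene of 199.0 kb, had 21 distal regions of both replicates, all of them nearest to its own start, and no other protein-coding gene starts in its window. This was the percentile 98.5 of all genes, while the density, 7.69 regions per 100 kb, was at the percentile 48.9, since the window of 299 kb is long. The strongest of the 21 lay at -42.70 kb, from 83882356 to 83882525 on chromosome 9, with values of 72 and 125 (percentiles 78.0 and 90.9). An intronic region at 8.35 kb had 76 and 112, the higher of the pair in replicate 1 and the lower in replicate 2. All 23 peaks of replicate 1 in this window were found again in replicate 2, which had 13 further regions.

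Dld, Dbt and Bckdha had fewer distal regions of their own than Bckdhb, 2, 2 and 3, at the percentiles 52.4, 52.4 and 62.9 of all genes. Dld had 12 distal regions, of which 10 lay nearer to another start and 8 of these in introns of Lamb1, a laminin gene. Its own were a region at 1.01 kb, inside the promoter hotspot, with values of 52 and 103, and another at 7.72 kb, with 37 and 89. Dbt had 2 of its own, the stronger in an intron at 2.66 kb with values of 68 and 124, close to the 72 and 123 of its promoter. Bckdha had 3, the strongest at 1.03 kb inside the promoter hotspot with values of 43 and 85, and in replicate 2 a region at 8.93 kb, with 30 and 86, was slightly higher. Peak numbers were 19 in replicate 1 and 27 in replicate 2 for Bckdha, 14 and 19 for Dbt, and 16 and 18 for Dld.

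**Figure D2:**
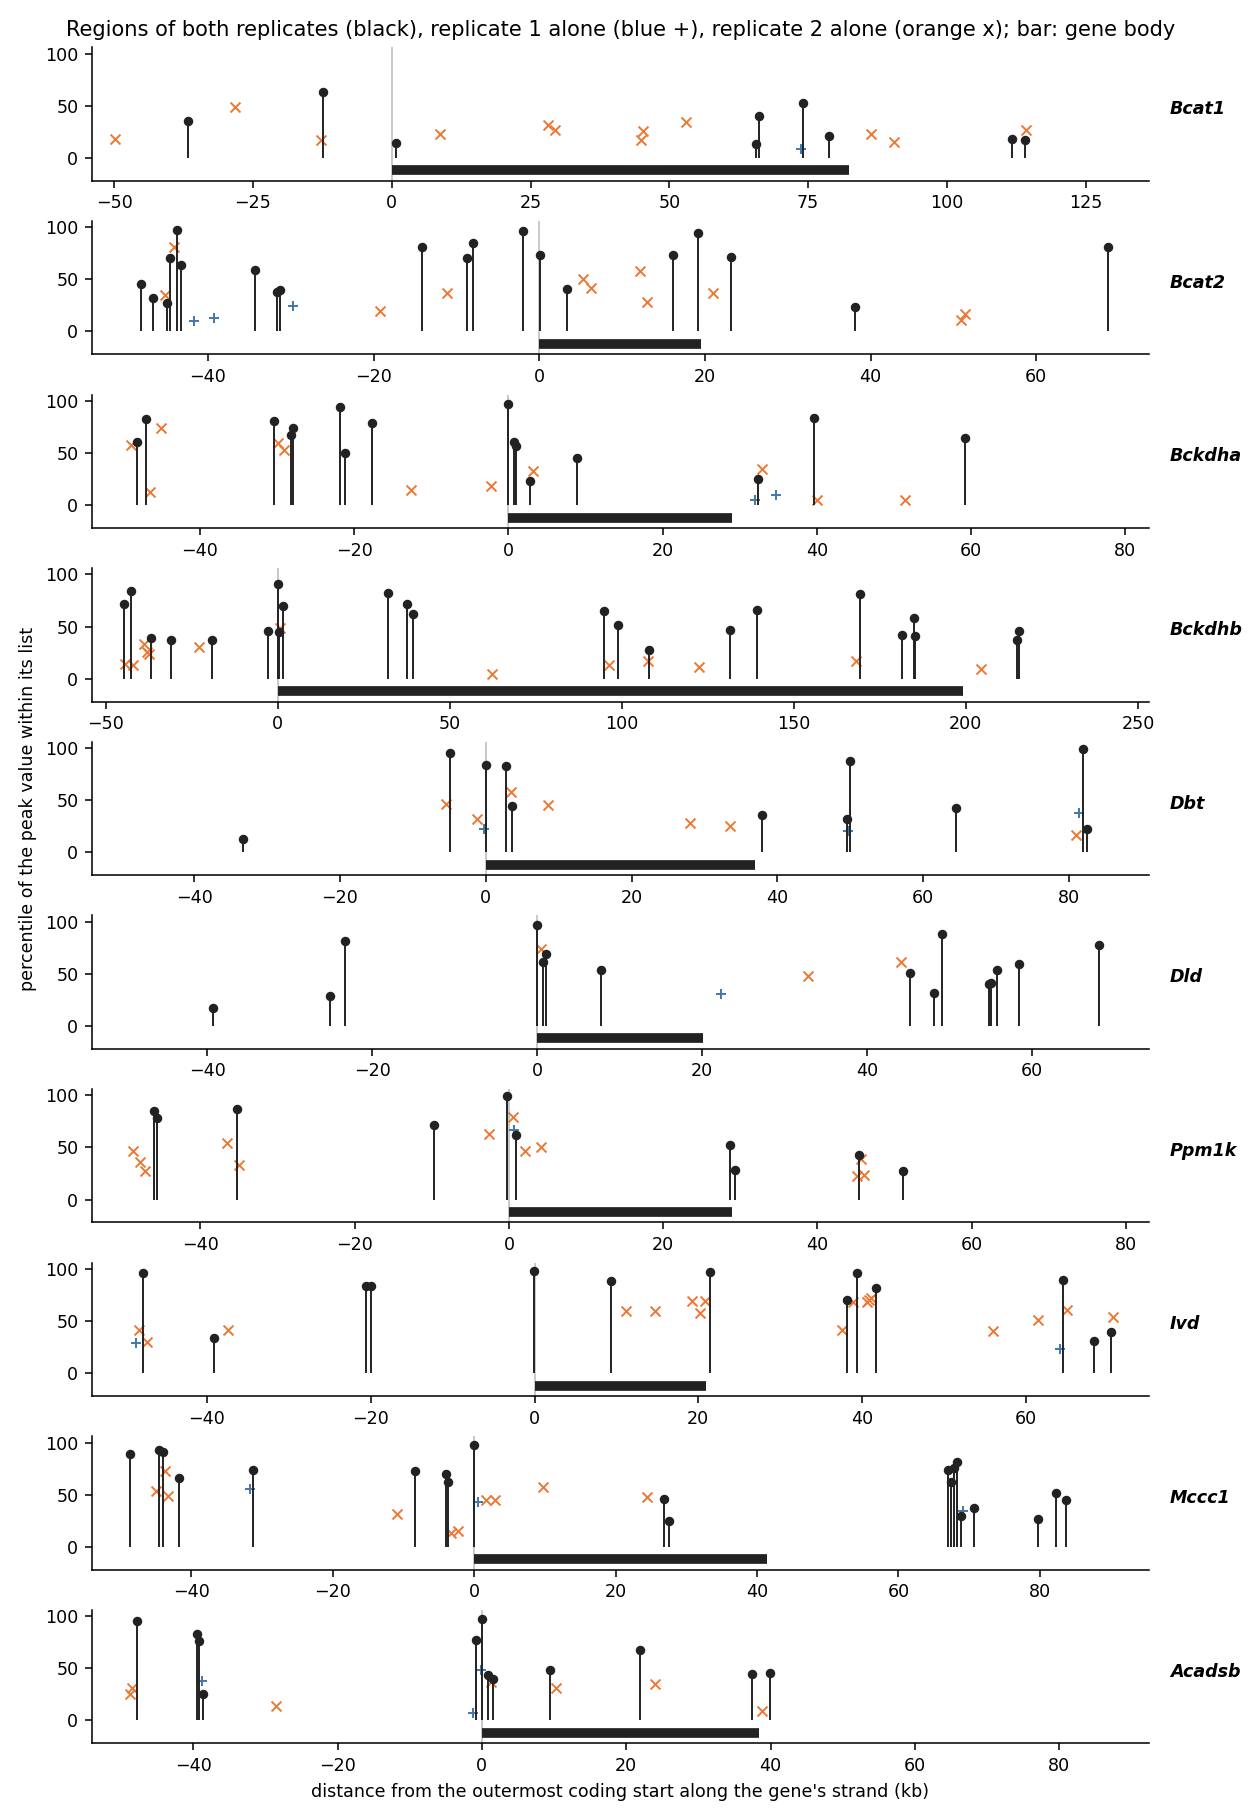
Peak regions by distance from the outermost coding start along each gene's strand (kb, x axis) and percentile of the peak value within its list (y axis); black stems show the mean percentile of regions held by both replicates, blue plus signs and orange crosses regions of replicate 1 or replicate 2 alone, and thick bars the gene body. At Bcat2 a region at -1.92 kb stands above the promoter, and at Bckdhb 21 distal regions spread along the gene and its flanks.

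Ppm1k encodes the mitochondrial phosphatase that switches the dehydrogenase complex on by removing its inhibitory phosphate. It had the strongest promoter of the 10 in each replicate. The region from 57535556 to 57535745 on chromosome 6, at -0.23 kb, had a value of 127 in replicate 1 and 144 in replicate 2 (percentiles 99.3 and 98.5 of all peaks). The hotspot over it was 2138 bp in replicate 1 and 2188 bp in replicate 2, the longest promoter hotspot among the members in both replicates. By contrast Bckdk, the kinase that inactivates the complex, had a strongest promoter value of 56 and 105, at the percentiles 14.3 and 21.0 of genes with a promoter peak. Ppm1k thus ranked above Bckdk in both replicates. The whole Ppm1k window, promoter included, had 11 peaks in replicate 1 and 22 in replicate 2, with 7.75 regions of both per 100 kb (percentile 49.4). It had 5 distal regions of its own (percentile 77.1), the strongest at -9.66 kb with values of 53 and 109.

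Ivd and Mccc1 act in the leucine branch. Ivd, the isovaleryl-CoA dehydrogenase, had 1 promoter region, with a value of 122 in replicate 1 and 143 in replicate 2. Its window also held a strong region past the 3′ end, from 118883256 to 118883425 on chromosome 2 at 21.39 kb, with 108 and 143 (percentiles 95.3 and 98.1), as high as the promoter in replicate 2. Bahd1 was the nearest protein-coding start to that region, so by the nearest-start rule it was not counted among Ivd's own. Of the 3 distal regions nearest to Ivd, the strongest lay in an intron at 9.31 kb with values of 90 and 120. The remaining pair, at -20.57 and -19.97 kb in an intron of Knstrn, had 81 and 110, and 75 and 118. Ivd had the least equal counts in absolute terms, 15 peaks in replicate 1 and 32 in replicate 2, with 13 regions of both.

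Mccc1 encodes the biotin-carrying subunit of methylcrotonyl-CoA carboxylase, the enzyme after Ivd. Its promoter region had a value of 116 in replicate 1 and 141 in replicate 2. It had 23 and 30 peaks and 20 regions of both, 14.1 per 100 kb (percentile 82.8). Of its 12 distal regions 5 were nearest to Mccc1, and the strongest of these, printed above, lay at -8.28 kb in an intron of Ccdc144b with values of 67 and 93. In replicate 2 alone a region at -3.99 kb, with 58 and 96, was higher. A stronger pair in the same neighbour, at -44.02 and -44.57 kb, had 100 and 123, and 98 and 133. Mccc1 therefore had its highest distal values near the far end of its window, in a neighbouring gene.

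Acadsb, the short and branched-chain acyl-CoA dehydrogenase of the isoleucine branch, had a promoter region with 114 in replicate 1 and 142 in replicate 2. The start of Ikzf5, on the opposite strand, lies 80 bp away, so as at Bckdha the region is shared by a divergent pair of genes. The hotspot under its strongest peak was short, at 398 and 569 bp (percentiles 17.8 and 20.2 of promoter hotspots). Separate hotspots lay on either side, of 482 and 1140 bp at -0.82 kb and of 314 and 1103 bp at 0.66 kb. The short length is therefore not the extent of open chromatin at this promoter. Acadsb had 15 peaks in replicate 1, 20 in replicate 2 and 12 regions of both. None of its 5 distal regions was nearer to another start, and the strongest, in an intron at 21.67 kb, had 52 and 98. All 5 also lay within the annotated body of Fgfr2.

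**Figure D3:**
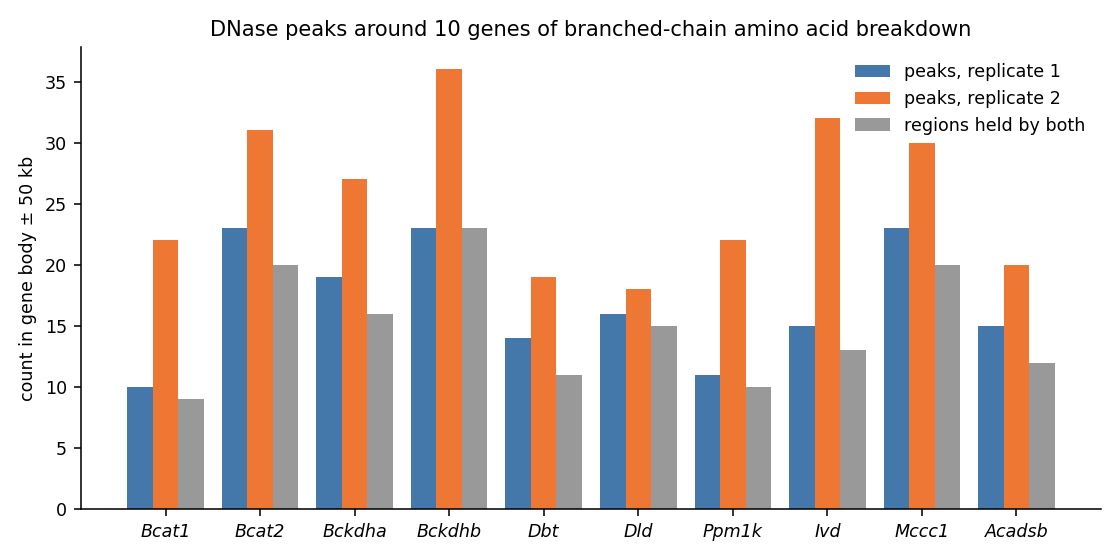
Number of peaks in each window (gene body with 50 kb on each side, y axis) in replicate 1 (blue) and replicate 2 (orange), and of merged regions held by both (grey), for the 10 members (x axis). Replicate 2 has more peaks at every member, from 16 against 18 at Dld to 15 against 32 at Ivd.

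Over the 10 windows there were 169 peaks in replicate 1 and 257 in replicate 2, a mean of 213 ± 62.2 (SD, n = 2), and 144 and 218 hotspots, a mean of 181 ± 52.3 (SD, n = 2). The ratio of replicate 2 to replicate 1 in peaks was 1.52, beside 1.62 over all chromosomes, so the members shared the excess of replicate 2. Merged across the replicates there were 271 regions, of which 149 held a peak of both, 19 of replicate 1 alone and 103 of replicate 2 alone. The share held by both was 55.0% (exact binomial 95% interval 48.8 to 61.0, counting error only), beside 53.1% over all chromosomes. Of the 19 regions of replicate 1 alone, 14 had a replicate 2 peak within 500 bp (73.7%, beside 68.4% over all chromosomes) and 12 lay in a hotspot of replicate 2 (63.2%, beside 61.9%). Of the 103 of replicate 2 alone, 34 had a replicate 1 peak that near (33.0%, beside 21.8%) and 10 lay in a hotspot of replicate 1 (9.71%, beside 5.83%).

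By position, 51 of the 149 regions (34.2%) were promoters, 17 of them of members and 34 of neighbouring genes, beside 18.7% of such regions over all chromosomes. Another 10 lay in exons (6.71%, beside 3.82%), 55 in introns (36.9%, beside 37.9%) and 33 between genes (22.1%, beside 39.6%). The windows are centred on genes, which the regions of all chromosomes are not. Regions of both replicates numbered 4.94 to 16.7 per 100 kb, with a median of 9.71 for the members and 7.84 over the windows of all protein-coding genes. The median number of distal regions nearest to a gene's own start was 4.50 for the members and 2.00 for all genes. The members' distal regions were of middling strength, with a median of the mean percentile of 52.4, beside 58.1 over all distal regions of both replicates.

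The promoter sequence differed among the members as well. The ratio of observed to expected CpG dinucleotides, from 250 bases before to 50 bases after the outermost start, ran from 0.419 at Mccc1 to 0.999 at Dld, with a median of 0.646. Over all genes with an accessible promoter the median was 0.743, and over the others it was 0.237. Mccc1 and Ivd, at 0.419 and 0.474, were below that of accessible promoters in general, yet their promoter peaks were among the strongest 10% of both lists. Bcat1, with a weak promoter, had a like ratio of 0.449. Ppm1k, with the strongest promoter of the 10, was also below 0.743, at 0.686. So were Bckdhb (0.727), Bcat2 (0.606) and Dbt (0.575).

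The wider pathway, 21 further genes of downstream enzymes, amino acid transport and regulation, also had an accessible promoter throughout. All 15 downstream enzymes, all 4 transporters and both regulators were called, beside 55.3% of all protein-coding genes. Of the 21, 17 reached the strongest 10% in both replicates (not Auh, Hsd17b10, Acat1 and Bckdk), beside 31.7% of all genes. A promoter hotspot at the ceiling in both was found at 20 (not Bckdk), beside 50.1% of all genes. The 31.7% and 50.1% again count genes without an accessible promoter, so both are lower than the shares among accessible genes. A distal region of their own was found at 18 (not Acad8, Echs1 and Aldh6a1), beside 69.4% of all genes. Slc25a44, the mitochondrial carrier of branched-chain amino acids, and Mut, the methylmalonyl-CoA mutase at the end of the valine and isoleucine branches, had the highest promoter value of the list in replicate 1. Slc25a44 had 135 in replicate 1 and 148 in replicate 2, and Mut had 135 and 147. The most distal regions of their own were at Hibadh, the 3-hydroxyisobutyrate dehydrogenase of the valine branch, with 24. Pcca, a subunit of propionyl-CoA carboxylase, had 15 and Klf15, a transcription factor known as a regulator of this pathway, had 13. Klf15 also had the densest window, with 23.1 regions of both replicates per 100 kb.

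Consensus letters were searched on both strands of the central 150 bp of the 57 distal regions nearest to a member, and 26 of them (45.6%) had a match to at least 1 of 14 consensuses, beside 49.2% of the distal regions of all genes. C/EBP factors act in adipocyte differentiation, and their letters TTGCNNAA were in 12 of the 57 (21.1%), beside 13.2% of the 95618 distal regions of all genes. Of these 12, 8 were at Bckdhb, 2 at Mccc1, 1 at Ppm1k and 1 at Acadsb, so they were not spread evenly over the members. Bckdhb alone supplied 21 of the 57 regions, and the higher share of the members rested on this gene. Bcat1, Bcat2, Bckdha, Dbt, Dld and Ivd had no C/EBP match in the distal regions nearest to their own start. The Ivd downstream region, printed above, has a match but lies nearest to Bahd1 and is not among the 57. Regions of 1 gene are not independent samples, and matches to different consensuses may overlap, as in the Mccc1 region. The loose CTCF letters CNAGNNGGC were in 9 (15.8%, beside 16.2%), the AP-1 letters in 4 (7.02%, beside 10.1%) and the glucocorticoid receptor letters in 4 (7.02%, beside 5.65%). STAT letters (TTCNNNGAA) were in 4 (7.02%, beside 5.91%), EBF letters (CCCNNGGGA) in 3 (5.26%, beside 3.72%) and the E-box CACGTG in 1 (1.75%, beside 2.29%). The letters of PPAR-RXR (AGGNCA repeated with 1 base between) were in none of the 57, beside 0.614% of all distal regions. There was likewise no match for ERR (TCAAGGTCA), NF1 (TTGGC and GCCAA with 5 bases between), ETS (CCGGAAG), NRF1 (GCGCNTGCG), Sp/KLF and CREB (TGACGTNA), whose shares over all distal regions were between 0.110% and 1.87%.

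**Figure D4:**
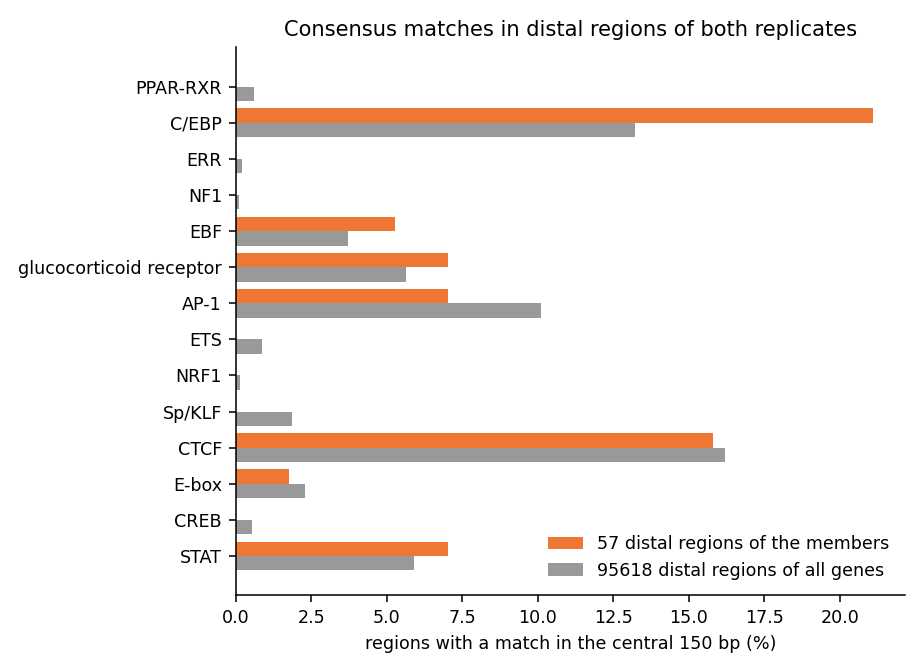
Share of distal regions of both replicates with a consensus match in the central 150 bp (%, x axis), for the 57 regions nearest to a member (orange) and the 95618 of all genes (grey), for 14 consensuses. C/EBP has the longest bar for the members, at 21.1% beside 13.2%, with most of its matches at Bckdhb, and 7 consensuses have none there.

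In the 17 promoter regions of the members the Sp/KLF letters were in 3 (Bcat2, Ivd and Ppm1k; 17.6%, beside 14.0% of 21972 promoter regions of all genes). The NRF1 letters were in 1 of them, at Dld (5.88%, beside 6.01%), and the CTCF letters in 1 at Mccc1 (5.88%, beside 16.4%). The single promoter region of Ivd, besides the Sp/KLF letters, had those of the glucocorticoid receptor (5.88%, beside 2.49%) and of STAT (5.88%, beside 3.86%). No promoter region of a member had the C/EBP letters, which 6.03% of all promoter regions had, or the ETS letters, which 8.66% had.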

How the data were processed

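DNase-seq peaks and hotspots of 2 biological replicates were used as deposited, with coordinates on mm10 per the labels. The peak lists deposited by the authors hold a signal value per peak, and the hotspot lists deposited by the authors hold the −log10 of a q-value. The lists were made for each library separately, without pooling. For the peak caller, the aligner, filters, scaling of the signal and depth, the entry is the same: not given in the sources used here. Identical duplicate lines (20 and 33) were counted once, and regions off the 21 assembled chromosomes were left out.

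Peaks of both lists were merged with at least 1 bp of overlap, and a merged region was shared when it held a peak of each replicate. Regions were called promoter (centre within 1000 bp of a protein-coding start), then exon of a protein-coding gene, intron or intergenic, with GENCODE M21. Distal regions were assigned to the nearest protein-coding start. Positions count from 1. With 1 group and no control there is no test, and counts are set beside those of all protein-coding genes. Scripts used Python 3.11.15, NumPy 2.4.6, SciPy 1.17.1, pysam 0.24.0 and Matplotlib 3.10.9, and the procedures were tested on simulated data. The members, the lists, the consensus letters and the rule for named genes were chosen with earlier results of these data known. That rule took all members with their promoter and strongest distal region, and of the wider list the genes without an accessible promoter and the 3 with the most distal regions. The strongest 10% and hotspot calls, the promoter consensus counts, other wider-list genes named, and the printed promoter, Bcat2 upstream and Ivd downstream sequences were added after values were seen. The Bcat2 upstream region touches an exon of a noncoding antisense gene. Alternatives changed the promoter window, overlap, flank, peak strength, list and replicate.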

Additional observations from a re-analysis of the deposited data

How the results depend on the processing

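All 10 members kept an accessible promoter with a window of 2500 bp, with hotspots in place of peaks and in each replicate alone. When the window was 500 bp, or only the stronger 50% of peaks were kept, 9 did, and Bcat1 was the exception both times. The wider list had 21 of 21 under all 6 alternatives. In the stronger 50% of each list there were 79 shared regions in place of 149, 25 distal regions nearest to a member in place of 57, and a median density of 4.49 per 100 kb in place of 9.71 (all genes 4.12). Flanks of 20 and 100 kb gave 80 and 236 shared regions. Without 1 replicate, the regions of the other alone numbered 169 to 252, the distal regions nearest to a member 59 to 105, the median density 11.6 to 16.0 (all genes 8.68 to 13.3) and the distal regions with a consensus match 26 to 46, in each case with the higher value from replicate 2. Without 1 replicate, promoters were called at 10 to 10 members and at 21 to 21 genes of the wider list. The share held by both replicates stayed between 50.9% and 60.3% under 6 alternatives. No paired analysis was possible because both libraries belong to 1 group. The lack of a known depth limits all values: a peak missing from replicate 1 cannot be told apart from one below its detection.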

Other observations

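Several of the strongest regions in the windows were promoters of neighbouring genes. The strongest peak in the Dbt window lay near the start of Sass6, from 116594836 to 116595005 on chromosome 3, with values of 120 in replicate 1 and 147 in replicate 2, above the Dbt promoter in both. At Bcat2 the highest value in replicate 1 was 113, at the start of Plekha4, where replicate 2 had 141. In the Mccc1 window the promoter of Dcun1d1 held 5 regions within 1 hotspot of 2231 bp in replicate 1 and 2246 bp in replicate 2. At Ivd, replicate 2 had 4 peaks of value 88 to 93 in the gene Bahd1 where replicate 1 had none. The Bahd1 promoter lay under 1 hotspot of 2017 bp in replicate 2. In replicate 1 the same stretch held separate hotspots of 200 and 697 bp, so the lengths differ partly because the call was split.

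The strongest hotspots could not be ranked. In each list the highest −log10 q below the ceiling of 100 was 6, and 46.7% of the hotspots of replicate 1 and 48.5% of those of replicate 2 were at the ceiling.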
